A study of Mus musculus with 4 samples.

Results

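The nuclear genes for the subunits of the oxidative phosphorylation (OXPHOS) complexes were taken as a set and followed through the cell types of the bone marrow stroma after loss of *Lats2* in endothelial cells (ECs). Members were chosen by symbol alone: names beginning with Nduf, Uqcr, Sdh (*Sdha* to *Sdhd*), Cox4 to Cox8 or Atp5, without *Ndufa4l2*, the Ndufaf assembly factors and annotated pseudogene names ending in -ps. This gave 91 genes, of which 90 had at least 10 counts over the barcodes with at least 1000 unique molecular identifiers (UMIs), out of 28200 features with that many counts. *Ndufb11b*, with 1.5 counts, fell just outside the minimum, and *Cox7b2*, with 32 counts, just inside it. By complex, the 90 genes comprised 40 of complex I, 4 of complex II, 8 of complex III, 20 of complex IV (including *Ndufa4*) and 18 of complex V.

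Stromal cells freed from the metaphyses of leg bones were profiled by droplet-based single-cell RNA sequencing. Both groups carried loxP-flanked *Lats2* alleles (*Lats2* lox/lox), a kinase gene of the Hippo pathway, on a C57BL/6 background. Mutant mice (*Lats2*iΔEC) also carried *Cdh5(PAC)-CreERT2*, a tamoxifen-inducible Cre recombinase driven by an endothelial promoter, whereas controls were littermates without Cre. Mice of both groups received tamoxifen (1 mg daily for 5 days at the age of 4 to 5 weeks), although the labels call the controls untreated, and they were 12 weeks old when the cells were taken. There were 2 libraries per genotype, and the labels do not give the number of mice per library, so that the tests measure the spread between these libraries. Because the alleles are recombined by a promoter active in ECs, a difference in any other cell type is a difference in cells that were not the intended target of the deletion.

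OXPHOS is carried out in the inner mitochondrial membrane. Complexes I and II pass electrons from NADH and succinate to ubiquinone, complex III hands them to cytochrome c and complex IV to oxygen, while complex V (ATP synthase) uses the proton gradient built by complexes I, III and IV to make ATP. A small number of core subunits are encoded by mitochondrial DNA, but most subunits, and all of complex II, come from nuclear genes whose products are imported. Several complex IV and V subunits have alternative isoforms, and some of them, such as *Cox4i2*, are known to be induced by low oxygen. Bone marrow stromal cells and growth plate chondrocytes live in a poorly oxygenated tissue and rely to a large extent on glycolysis.

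The libraries held 69636600 and 78953446 UMIs in the mutants and 83453507 and 85899079 UMIs in the controls. Of 24599 barcodes that passed the quality filters, 20087 were assigned to 8 cell types by marker genes: ECs, smooth muscle cells and pericytes (SMCs), fibroblasts (FBs), diaphyseal and metaphyseal mesenchymal stromal cells (dpMSCs and mpMSCs), osteoblasts (OBs), chondrocytes (CHOs) and hypertrophic chondrocytes (HCHOs). No member took part in this assignment. Another 1613 barcodes belonged to blood or Schwann cells, 1875 carried markers of several types and 1024 too few markers, and these were left out. Pairs of libraries shared between 10 and 27 cell barcodes, against 7.91 to 10.5 expected from their numbers. Cells per library and type ranged from 98 OBs in a mutant library to 1788 dpMSCs in a control library. *Lats2* itself fell in ECs, from 131 and 119.9 counts per 1000000 UMIs (CPM) in the controls to 89.1 and 94.96 CPM in the mutants (-0.38 on the log2 scale, adjusted p = 0.00175), and it was called in no other type. Transcripts counted as CreERT2 were present in mutant ECs at 51.9 and 49.1 CPM and near 0 in control ECs. *Ddx3y*, from the Y chromosome, was detected in every type of every library while *Xist* did not exceed 2.87 CPM in any.

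Most members were called in ECs. Of 79 members tested there, 68 rose and none fell, with a median log2 fold change of 0.36, whereas 28.5% of all 5868 genes tested rose and 28.8% fell and their median was 0.01. Here and below, a gene was tested where it passed a filter on low counts and had a count in 20% or more of the cells of one genotype, and it was called where the adjusted p of edgeR's quasi-likelihood test (Benjamini-Hochberg, over all genes tested in that type) was at most 0.05. With library totals in place of TMM scaling 60 members rose and none fell, against 22.3% and 34.5% of all genes, and the share of all called genes that rose went from 49.7% to 39.3%. The summed level of the 90 genes was 1.34 and 1.36% of UMIs in the mutant libraries and 1.08 and 1.14% in the control libraries. Both mutant libraries therefore lay above both control libraries, by 1.22-fold in the mean. The shift was seen in the bulk of cells, since the share per cell had a median of 1.25 and 1.28% in the mutants against 1.05 and 1.09% in the controls. The heat map of all tested members shows smaller, mixed or opposite changes in the other types.

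**Figure D1:**
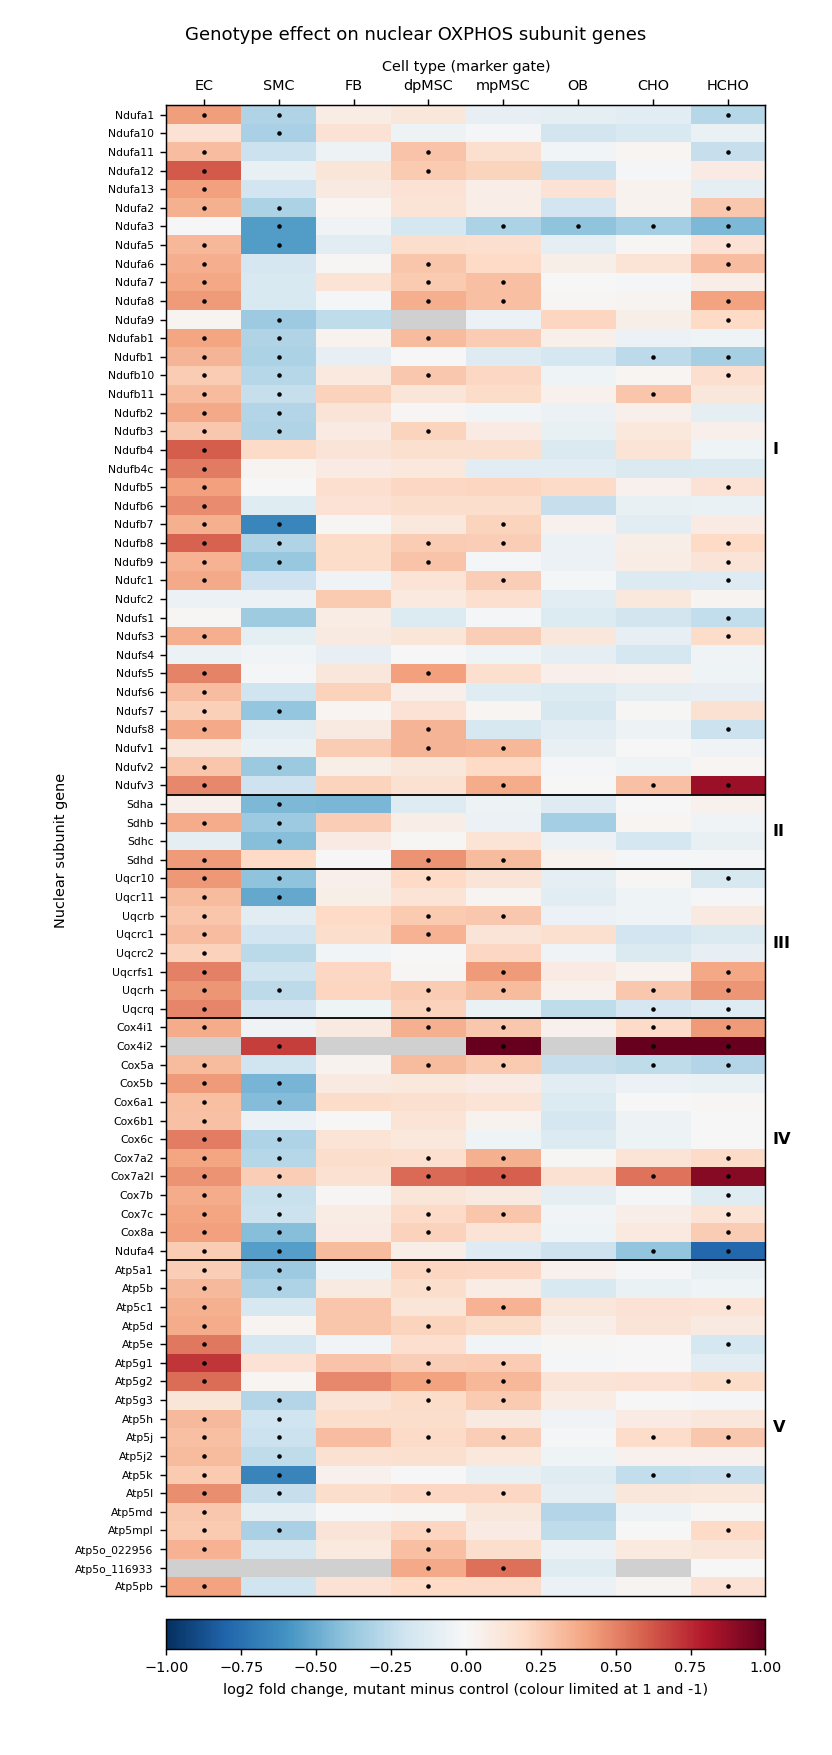
Log2 fold change (mutant minus control, colour) of each nuclear OXPHOS subunit gene tested in at least 1 cell type (rows, grouped by complex I to V, with 1 member not drawn) in the 8 cell types (columns); black dots mark an adjusted p of at most 0.05 and grey cells were not tested. The EC column is almost uniformly higher (68 of 79 called), the SMC column mostly lower (40 of 80), and the HCHO column mixed (25 higher, 14 lower).

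The rise in ECs was found in complexes I, III, IV and V, and less in complex II. All 8 subunit genes tested of complex III and all 12 of complex IV rose, as did 16 of 17 of complex V, 30 of 38 of complex I and 2 of 4 of complex II, beside 28.5% of all genes. In complex I the 7 nuclear core subunits, which form the electron-transferring arm, had a median of 0.24 with 4 called, and the 31 accessory subunits a median of 0.36 with 26 called. The summed level of complex I was 0.419 and 0.421% against 0.343 and 0.363% of UMIs (mutants against controls), that of complex III 0.142 and 0.147% against 0.113 and 0.120%, that of complex IV 0.382 and 0.382% against 0.298 and 0.317% and that of complex V 0.375 and 0.382% against 0.299 and 0.319%. The sum of complex II moved least in proportion, at 0.0270 and 0.0270% against 0.0250 and 0.0252%. In none of the 5 did the genotypes overlap.

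*Atp5g1* (GRCm39 chromosome 11, 95959678 to 95966757, minus strand), 1 of 3 genes for the c subunit that forms the rotor ring of ATP synthase, changed most. Its level in ECs was 154 and 154 CPM in the mutant libraries and 94.5 and 103 CPM in the control libraries. The mutant libraries were alike and both above the controls, with a log2 fold change of 0.71 ± 0.08 (SE, n = 2 libraries per genotype, adjusted p = 9.53e-06). *Ndufa12*, an accessory subunit of complex I, reached 90.1 and 93.3 CPM in the mutant libraries and 58.5 and 67.2 CPM in the control libraries, again without overlap (0.61, adjusted p = 5.37e-05). *Ndufb4*, an accessory subunit of the membrane arm, stood at 83.9 and 91.7 CPM against 55.5 and 65.6 CPM, mutants against controls (0.60, adjusted p = 1.22e-04). Fractional counts, which arise where reads are shared between genes, made up 14.5% of the counts of *Ndufa12* and 28.0% of those of *Ndufb4*, so that part of these values depends on how reads were divided. *Uqcrq*, a small subunit of complex III, was at 195 and 191 CPM against 141 and 148 CPM (0.49, adjusted p = 1.45e-04). *Cox4i1*, the ubiquitous isoform of subunit 4 of complex IV, rose from 433 and 467 CPM in the controls to 577 and 533 CPM (0.37, adjusted p = 6.06e-04).

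The 11 members tested but not called in ECs included the catalytic flavoprotein of complex II, *Sdha* (0.05), and its membrane anchor *Sdhc* (-0.09), whereas the iron-sulphur subunit *Sdhb* (0.37) and the other anchor *Sdhd* (0.43) rose. *Atp5g3*, another c-subunit gene, was at 132 and 135 CPM against 124 and 134 CPM (0.12, adjusted p = 0.216), while *Atp5g2* rose (0.56, adjusted p = 8.02e-05, 46.0% of its counts fractional). Among the core complex I subunits, *Ndufs1* (0.02) and *Ndufv1* (0.11) were also not called. *Atpif1*, the inhibitor of ATP synthase, which is not a member, rose with the set in ECs (0.40, adjusted p = 0.0012), and also in dpMSCs (0.42) and mpMSCs (0.23).

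**Figure D2:**
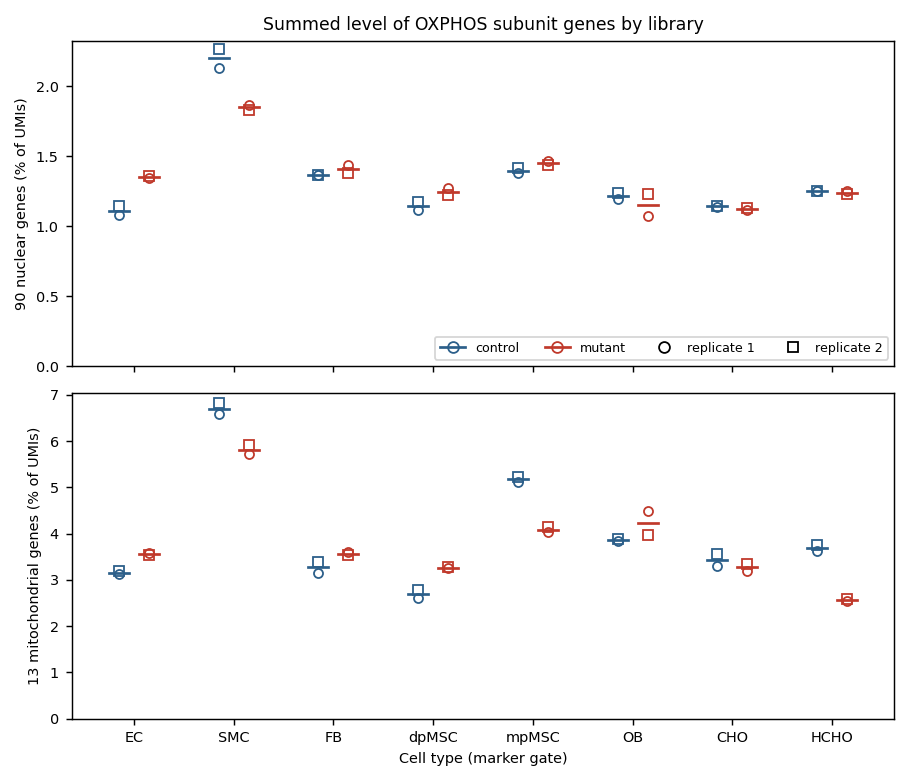
Summed level per library (percent of all UMIs of the cell type) of the 90 nuclear subunit genes (upper panel) and the 13 mitochondrially encoded subunit genes (lower panel) in each cell type, with short lines at the mean of 2 libraries. ECs show higher mutant values for both sums, SMCs lower ones, and HCHOs no separation of the nuclear sum (1.25 and 1.23% against 1.25 and 1.25%) beside a lower mitochondrial sum.

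Several measures moved together with this rise. The fold change of a gene in ECs fell with the length of its mRNA over all genes tested (Spearman's rho = -0.42 across 5685 genes, given as a description since genes are not replicates), and the members are short, with a median of 917 nucleotides against 3252 for all genes. Every pairing of a mutant with a control EC library showed this trend (rho between -0.44 and -0.37). Between libraries of the same genotype rho was -0.03 in the mutants and 0.34 in the controls (first minus second library). The sign of such a pair depends only on the order of subtraction. The control libraries thus differed from each other by a trend nearly as large as that between the genotypes. When each library's trend with length was removed, an alternative chosen after seeing the data, 25 of 78 members were called higher and 2 lower, with a median of 0.13 (0.02 for all genes). In that fit 24.6% of all genes were higher and 24.0% lower, so that the share of members called higher was nearer to the background than before the removal. Of the members named above, *Atp5g1* (0.42), *Ndufa12* (0.39), *Ndufb4* (0.30), *Uqcrq* (0.30), *Atp5g2* (0.28) and *Sdhb* (0.47) were also called higher in that fit, whereas *Cox4i1* (0.09, adjusted p = 0.212) and *Sdhd* (0.21, adjusted p = 0.0758) were not, nor was *Atpif1* (0.11, adjusted p = 0.272). Genes for cytosolic ribosomal proteins, which are also short, rose in ECs too (77 of 78, median 0.48, beside 28.5% of all genes). The median EC had 6872 and 6626.5 UMIs in the mutants and 5594.5 and 5302 in the controls, the 8 erythroid markers together took 0.0684 to 0.0702% of UMIs against 0.0350 to 0.0373%, and the 9 leukocyte markers 0.00788 to 0.00806% against 0.0118 to 0.0147%. OB markers in ECs differed more in proportion, at 0.0117 and 0.00887% against 0.0455 and 0.0581% (mutants against controls). Erythroid markers were higher in both mutant libraries than in both controls in all 8 types, ECs included. The parts of depth and of these markers in the result were not tested.

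The composition of the EC gate differed as well. Of the 10 markers of the gate, 2 were higher and 5 lower in both mutant libraries and 3 overlapped, among them *Cdh5* (984 and 1076 CPM against 987 and 981 CPM). *Stab2*, a scavenger receptor of sinusoidal ECs, was at 424 and 358 CPM in the mutants against 1079 and 1148 CPM in the controls, *Kdr*, the receptor for vascular endothelial growth factor, at 361 and 367 against 759 and 712 CPM, and *Vwf* at 292 and 329.8 against 148 and 118 CPM. Among cells with a *Stab2* count (110 and 129 in the mutants, 323 and 307 in the controls), the members took 1.20 and 1.25% of UMIs in the mutants and 1.02 and 1.11% in the controls. Among cells without one (413 and 495 against 471 and 487), the shares were 1.39 and 1.40% against 1.13 and 1.18%. The mutant libraries were above the controls in both subsets. A total of 14 of 79 members were called higher with *Stab2* (median 0.26) and 61 of 79 without it (median 0.34), and none lower in either. The shares of all genes called higher and lower were 10.6% and 10.7% with *Stab2* and 24.3% and 24.2% without it.

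**Figure D3:**
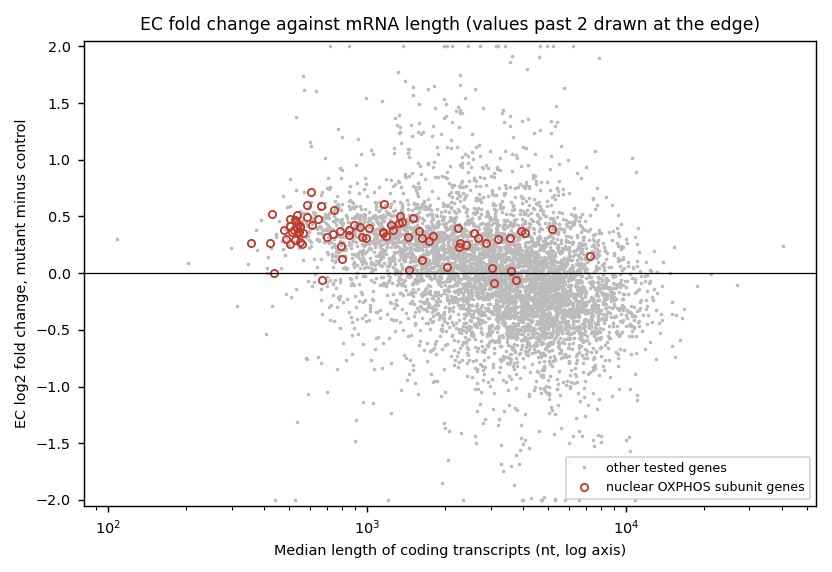
Log2 fold change in ECs (mutant minus control) of each gene tested against its mRNA length in nucleotides (log axis), with the nuclear OXPHOS members set apart from the other genes. Short genes lie higher than long ones (rho = -0.42 over 5685 genes), and the members sit at the short end, with a median length of 917 nucleotides.

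To ask whether the members moved in ECs in another way than in the cells around them, the EC effect was set against the mean effect of the other 7 types in a single fit with library as a block. Of 81 members tested, 65 rose more in ECs and none less, against 12.6% and 12.9% of all 9213 genes, and the median difference was 0.33 for the members and 0.02 for all genes. The largest difference was that of *Atp5g1*, 0.61 ± 0.08 (SE, adjusted p = 1.55e-05) on the log2 scale, followed by *Uqcrq* with 0.59 ± 0.07 (SE, adjusted p = 3.94e-06). *Ndufb4c*, annotated as a pseudogene and with 48.2% of its counts fractional, gave 0.57 ± 0.09 (SE, adjusted p = 1.05e-04). *Cox7a2l*, in contrast, which had risen in several types, was not called (0.01 ± 0.08 (SE, adjusted p = 0.97)). Removing the trend with mRNA length left 36 of 80 members higher and 1 lower (median 0.20), against 10.4% and 12.5% of all genes. Without the first control library 34 members were called higher (530 of all 9213 genes) and without the second 38 (709 of all 9213). The median stayed at 0.32 and 0.34.

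SMCs showed the opposite picture when all cells of the gate were summed. There, 40 of 80 members fell and 2 rose, against 22.9% and 22.7% of all 5133 genes, with a median of -0.22. The summed level was 1.87 and 1.83% of UMIs in the mutant libraries and 2.13 and 2.26% in the control libraries. Control SMCs had the highest level of any type, and both mutant libraries lay below both. The fall included 17 of 38 genes of complex I, 3 of 4 of complex II, 3 of 8 of complex III, 8 of 13 of complex IV and 9 of 17 of complex V. Left-out libraries moved the count. Without the second mutant library 26 members were called lower (all genes 1032 of 5131), and without the second control library 25 (all genes 1081 of 5135). DESeq2 called 21 lower and 1 higher (all genes 14.7% and 14.7%), and a ceiling of 10% in place of 15% mitochondrial counts left 24 lower and 2 higher (all genes 20.4% and 20.4%, median of the members -0.14). Removing the trend with mRNA length went the other way, with 55 of 79 lower and 1 higher (all genes 21.4% and 22.4%), more than were called in ECs in that setting.

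*Atp5k*, which encodes subunit e of ATP synthase, fell most in SMCs, to 235 and 215 CPM from 355 and 362 CPM, a log2 fold change of -0.66 ± 0.08 (SE, n = 2 libraries per genotype, adjusted p = 1.09e-05). The accessory complex I genes *Ndufb7* (187 and 189.6 CPM against 285 and 309.8 CPM, -0.65) and *Ndufa5* (184 and 182 CPM against 253 and 289.6 CPM, -0.56) followed, with adjusted p-values of 1.91e-05 and 1.55e-04. Mutant and control libraries did not overlap for any of the 3 genes.

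The cells in the SMC gate were not alike in the 2 genotypes. *Myh11*, the smooth muscle myosin heavy chain, was at 1158 and 1227 CPM in the mutants and 3462 and 3702 CPM in the controls, and *Acta2* at 4868 and 4559 against 10089.7 and 10959 CPM. Of the 8 markers of the gate 6 were lower in both mutant libraries, among them the pericyte gene *Rgs5* (3719 and 4245 against 6025 and 5817 CPM), and 2 were higher, the channel genes *Kcnj8* (111 and 119 against 46.3 and 50.4 CPM) and, by less, *Abcc9* (263 and 253 against 251 and 227 CPM). Erythroid markers took 0.0605 and 0.0730% against 0.0224 and 0.0257% of UMIs in SMCs (mutants against controls), OB markers 0.0132 and 0.0107% against 0.0448 and 0.0407% and EC markers 0.0183 and 0.0208% against 0.0132 and 0.00887%, and their part in the result was not tested. A *Myh11* count was found in 228 of 415 and 247 of 450 mutant cells but in 258 of 260 and 262 of 273 control cells. In the cells with a *Myh11* count, the members took 2.20 and 2.13% of UMIs in the mutants and 2.14 and 2.29% in the controls, so that the genotypes overlapped. The fit on these cells, added after seeing the data, called 3 of 80 members lower and 1 higher, with a median of -0.01, against 11.8% and 10.7% of all genes, so that both shares of members lay below the background. The mutant cells without a *Myh11* count (187 and 203) had shares of 1.55 and 1.51%. Only 2 and 11 control cells were without one, too few for a test. The fall of the set in SMCs was thus measured over the gate as a whole, and most of it was not found among the cells with a *Myh11* count.

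**Figure D4:**
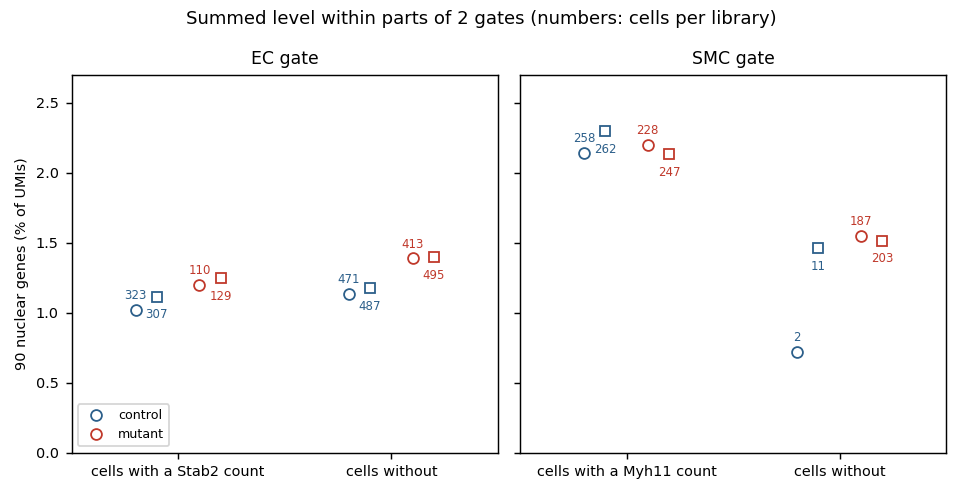
Percent of UMIs taken by the 90 nuclear subunit genes in ECs with and without a *Stab2* count and in SMCs with and without a *Myh11* count, per library. Mutant ECs lie above control ECs in both subsets, while mutant and control SMCs with a *Myh11* count overlap (2.13 to 2.20% and 2.14 to 2.29%).

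In both stromal populations more members rose than fell, a lean that was lost in mpMSCs when the trend with mRNA length was removed. In dpMSCs, the reticular stromal cells that express *Lepr* and *Adipoq*, 38 of 79 members rose and none fell, against 22.7% and 20.4% of all 5128 genes, with a median of 0.18. In mpMSCs, the stromal cells of the metaphysis, 24 of 81 members rose and 1 fell, against 19.8% and 18.0% of 5973 genes, with a median of 0.17. Summed levels were 1.27 and 1.22% of UMIs in the mutant libraries and 1.12 and 1.18% in the control libraries in dpMSCs, and 1.47 and 1.43% against 1.38 and 1.41% in mpMSCs. The pairs did not overlap in either type, but the gap in mpMSCs was small. The median share per cell was 1.19 and 1.16% against 1.09 and 1.13% in dpMSCs, where both mutant libraries were above both controls, and 1.34 and 1.29% against 1.33 and 1.37% in mpMSCs, where the genotypes overlapped and the second mutant library was the lowest. With library totals, 19 members rose and 2 fell in dpMSCs (all genes 16.6% and 29.3%), and 8 rose and 3 fell in mpMSCs (14.5% and 25.7%), and the share of all called genes that rose went from 52.7% to 36.2% and from 52.5% to 36.1%. The counts also rested on single libraries. In dpMSCs 10 of 79 members rose without the first control library (779 of all 5128 genes) and 19 without the first mutant library (865 of 5128). In mpMSCs 7 of 81 rose without the first control library (791 of all 5972 genes) and 7 without the second (845 of 5972). There 13 rose without the first mutant library (953 of 5973). Among these fits only the 19 in dpMSCs made a share above that of all genes by more than a trace. Without the second mutant library 37 members rose in dpMSCs (1039 of all 5128 genes) and 19 in mpMSCs (993 of 5973). Omitting the second control library left 29 in dpMSCs (952 of 5128). These 3 shares were above those of all genes.

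By complex, 12 of 18 complex V genes rose in dpMSCs, beside 14 of 37 of complex I, 5 of 8 of complex III and 6 of 12 of complex IV. *Sdhd*, a membrane anchor of complex II, was at 59.98 and 53.9 CPM in the mutant libraries and 39.98 and 46.8 CPM in the control libraries (0.45, adjusted p = 0.00359). No other member of its complex was called there. *Ndufs5*, an accessory subunit of complex I, stood at 152 and 156 CPM against 114 and 127 CPM (0.41, adjusted p = 5.54e-04). In mpMSCs the second *Atp5o* entry (ENSMUSG00000116933), which shares reads with the other entry of that symbol (35.9% of its counts fractional), was at 47.6 and 48.6 CPM against 37.4 and 32.6 CPM (0.55). Removing the length trend left 14 of 78 members higher and 4 lower in dpMSCs, against 20.2% and 16.0% of all genes, and 5 of 80 higher and 6 lower in mpMSCs, against 19.0% and 15.1%. In neither type was the share of members called higher then above that of all genes.

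The cells of both stromal gates also differed between the genotypes. Of the 7 mpMSC markers 5 were lower in both mutant libraries, led by *Limch1* (459 and 487 against 2047 and 1878 CPM) and *Wif1* (536 and 653 against 1589 and 1561 CPM), and 2 were higher, *Postn* (576 and 675 against 472 and 426 CPM) and *Pdgfrb* (401 and 402 against 263 and 261 CPM). Of the 8 dpMSC markers 3 were higher, *Lpl* among them (2777 and 2858 against 1937 and 1881 CPM), and 5 lower, *Ebf3* among them (1587 and 1726 against 2724 and 2706 CPM). In dpMSCs the markers of other cells moved as well. Leukocyte markers took 0.00149 and 0.00108% against 0.0206 and 0.0364% of UMIs (mutants against controls), OB markers 0.0318 and 0.0996% against 0.222 and 0.400% and erythroid markers 0.112 and 0.105% against 0.0510 and 0.0725%. In mpMSCs OB markers were at 0.145 and 0.0901% against 0.552 and 0.546%, Schwann cell markers at 0.0163 and 0.0190% against 0.0294 and 0.0268% and CHO markers, which were higher in the mutants of both stromal types, at 0.127 and 0.251% against 0.0780 and 0.0844%. The part of these differences in the result was not tested.

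A few members stood apart from the rest of the set. *Cox4i2* (GRCm39 chromosome 2, 152595625 to 152606959, plus strand), the isoform of subunit 4 that replaces *Cox4i1* in part of the complex IV in some tissues and is known to respond to low oxygen, rose in all 4 types in which it was tested. In mpMSCs it was at 118 and 82.6 CPM in the mutant libraries and 21.9 and 24.98 CPM in the control libraries. That was a log2 fold change of 2.18 ± 0.17 (SE, n = 2 libraries per genotype, adjusted p = 5.86e-06), the largest of any member in any type. In HCHOs it stood at 219 and 219 CPM in the mutant libraries and 92.5 and 107 CPM in the control libraries, and both mutant libraries were alike (1.23 ± 0.06 (SE), adjusted p = 1.17e-10). CHOs gave 145 and 151 CPM against 64.5 and 86.8 CPM (1.03, adjusted p = 4.64e-05) and SMCs 183 and 169.6 CPM against 108 and 111 CPM (0.69, adjusted p = 7.94e-05). No other member reached a 2-fold difference in any type, whereas *Cox4i2* passed it in mpMSCs, CHOs and HCHOs. It was called in the same direction in all 4 types under every alternative run.

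In 4 types *Cox4i2* was detected in too few cells for a test. There it was at 45.7 and 32.5 CPM against 18.9 and 16.6 CPM in dpMSCs, 23.95 and 38.97 CPM against 23.8 and 18.9 CPM in FBs, 4.27 and 11.8 CPM against 4.32 and 3.51 CPM in OBs and 7.90 and 3.22 CPM against 0.693 and 5.17 CPM in ECs. Subunit 4 counts in ECs thus came almost wholly from *Cox4i1*, which was at 433 CPM or more in every EC library. RNA free in solution can add counts to any cell, and in droplets with at most 100 UMIs *Cox4i2* stood at 117 and 106 CPM in the mutants and 28.0 and 35.2 CPM in the controls. These values were close to the levels in mpMSCs, whereas ECs and OBs of the same libraries held between 0.693 and 11.8 CPM. The part of free RNA in the rise of *Cox4i2* was not tested. *Cox4i1* rose in 5 types, by 0.37 in ECs, 0.35 in dpMSCs, 0.27 in mpMSCs, 0.19 in CHOs and 0.43 in HCHOs, and in the 3 of these types where *Cox4i2* was tested its log2 fold change was the larger of the pair. With the length trend removed *Cox4i1* was no longer called in ECs, mpMSCs or CHOs. Whether the changes of the isoforms differed was not tested.

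*Cox7a2l* (GRCm39 chromosome 17, 83765970 to 83824759, minus strand), a relative of subunit 7a described as a factor in joining complexes III and IV, rose in the largest number of types, 6 of 8. Whether its product has that role in these mice was not measured. In HCHOs it was at 317 and 295 CPM in the mutant libraries and 176 and 174 CPM in the control libraries. Mutants were far above controls, with a log2 fold change of 0.91 ± 0.05 (SE, n = 2 libraries per genotype, adjusted p = 4.40e-10). In mpMSCs it was at 227 and 217 CPM against 149 and 163 CPM (0.60), in dpMSCs at 174 and 157 CPM against 116 and 117 CPM (0.57) and in CHOs at 230.3 and 243 CPM against 170.3 and 169.9 CPM (0.54). The change was 0.45 in ECs and 0.25 in SMCs (adjusted p = 0.0479), where it lost its call under 9 of the alternatives, among them library totals and the omission of the second mutant or the second control library (adjusted p = 0.0579, 0.194 and 0.259). In droplets with at most 100 UMIs *Cox7a2l* stood at 216 and 230 CPM in the mutants and 130 and 143 CPM in the controls. The part of free RNA in its rise was not tested. *Cox7a2*, the ubiquitous isoform, rose in 4 types and fell in SMCs (-0.29). *Uqcrh*, the hinge protein of complex III, and *Atp5j*, coupling factor 6 of ATP synthase, each rose in 5 types, by up to 0.44 and 0.30 (both in ECs), and fell in SMCs (-0.26 and -0.22). *Uqcrh* lost its calls in dpMSCs and mpMSCs with the length trend removed.

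*Ndufa4* (GRCm39 chromosome 6, 11897630 to 11907496, minus strand), first described in complex I and now placed in complex IV, went the other way in cartilage. In HCHOs it was at 134 and 131 CPM in the mutant libraries and 241 and 249 CPM in the control libraries. The mutant values were far below the controls (-0.78 ± 0.05 (SE, n = 2 libraries per genotype, adjusted p = 1.43e-09)), making it the member that fell most there. It fell less in CHOs (147 and 145 CPM against 207 and 194 CPM, -0.39, adjusted p = 3.78e-04) and in SMCs (-0.55) and was called higher in ECs (0.26), where its sign turned and the call ended with the length trend removed (-0.058, adjusted p = 0.45). Its paralogue *Ndufa4l2*, a gene known for its induction by low oxygen and left out of the set by the rule, was at 822 and 772 CPM against 140.3 and 148 CPM in HCHOs (2.57, adjusted p = 1.87e-14) and at 287 and 331 CPM against 26.5 and 35.1 CPM in mpMSCs (3.42, adjusted p = 3.91e-08). *Ndufa4l2* rose in all 7 types in which it was tested, under the same rule of entry, which a rise in the mutants can itself meet. The paralogues thus moved in opposite directions in HCHOs, CHOs and SMCs. In droplets with at most 100 UMIs *Ndufa4* stood at 204 and 194 CPM in the mutants and 247 and 291 CPM in the controls. The part of free RNA in its fall was not tested.

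*Ndufa3* (GRCm39 chromosome 7, 3620342 to 3623326, plus strand), a small accessory subunit of complex I, fell in 5 types, more than any other member. It was at 61.7 and 57.2 CPM in the mutant libraries and 87.1 and 86.4 CPM in the control libraries in HCHOs, without overlap (-0.45 ± 0.06 (SE, n = 2 libraries per genotype, adjusted p = 1.12e-05)). The change was -0.56 in SMCs, -0.31 in mpMSCs, -0.40 in OBs and -0.34 in CHOs. In OBs, where no other member was called, the omission of any library ended the call (adjusted p between 0.0704 and 0.38), in CHOs that of the first mutant or the first control library did (0.116 and 0.0953), and in mpMSCs that of the first or the second control library did (0.0844 and 0.0584). *Ndufv3* (GRCm39 chromosome 17, 31739052 to 31751735, plus strand), an accessory subunit of the NADH-oxidising module, rose in 4 types, and most in HCHOs, where it was at 132 and 131 CPM in the mutant libraries and 74.6 and 81.2 CPM in the control libraries (0.85 ± 0.06 (SE, n = 2 libraries per genotype, adjusted p = 2.84e-09)). Its calls in ECs and mpMSCs ended with the length trend removed. *Ndufb1*, an accessory subunit of the membrane arm, fell in SMCs (-0.31), CHOs (-0.26) and HCHOs (-0.33), as did *Atp5k* (-0.24 in CHOs and -0.23 in HCHOs). In ECs both were called higher, by 0.34 and 0.26, but neither was with the length trend removed (0.06 and -0.075, the latter with its sign turned). Droplets with at most 100 UMIs held *Ndufa3* at 83.4 and 87.2 CPM in the mutants and 125 and 125 CPM in the controls. In the same order *Ndufb1* was at 183 and 187 against 237 and 248 CPM and *Atp5k* at 167 and 167 against 205 and 216 CPM. *Ndufv3* was higher there, at 95.5 and 94.7 against 77.7 and 78.6 CPM. The part of free RNA in these changes was not tested.

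**Figure D5:**
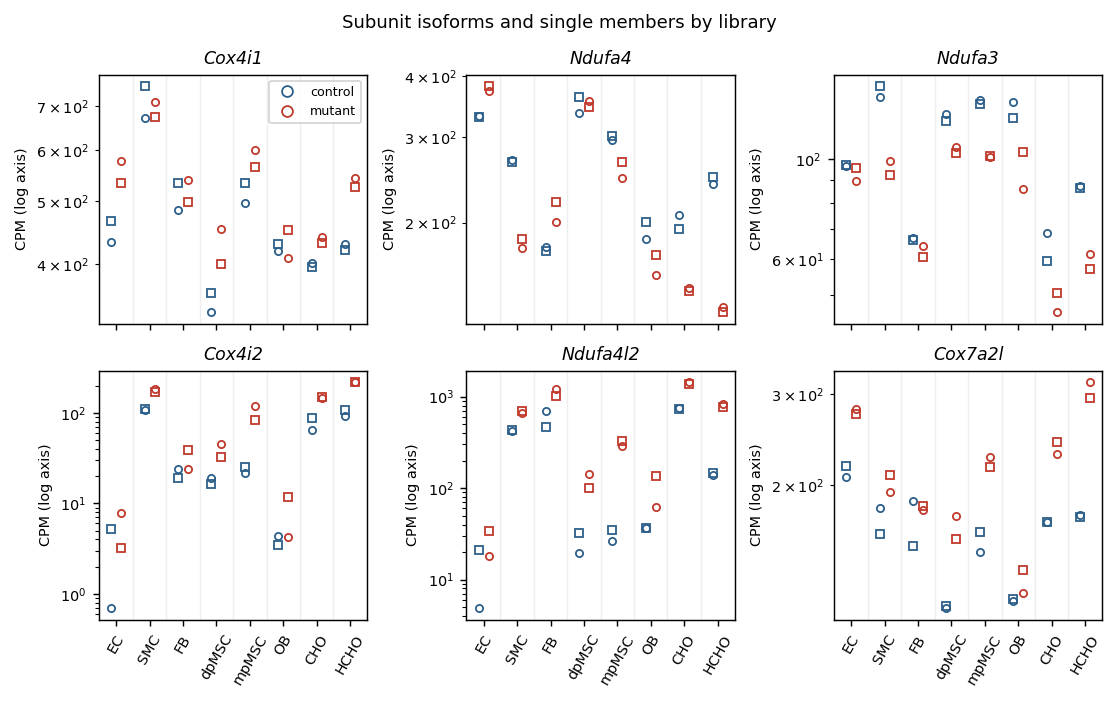
Level in CPM per library and cell type of members that moved apart from the rest of the set and of *Ndufa4l2*, which is not a member; circles are replicate 1 and squares replicate 2. *Cox4i2* and *Ndufa4l2* are higher in the mutants of SMCs, mpMSCs, CHOs and HCHOs, *Cox7a2l* is higher in most types, and *Ndufa4* is lower in mutant HCHOs (134 and 131 CPM against 241 and 249).

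The stretches before the start sites of 4 of these genes are shown because their members rose or fell in several types together. Each line gives the 250 bases upstream of the RefSeq start in GRCm38.p6, 5′ to 3′ on the strand of the gene, with matches to the motifs searched in capitals. *Cox7a2l* (chr17:83514334-83514583, minus strand) and *Ndufv3* (chr17:31519865-31520114, plus strand) rose, and *Ndufa3* (chr7:3617123-3617372, plus strand) and *Ndufa4* (chr6:11907451-11907700, minus strand) fell.
Cox7a2l: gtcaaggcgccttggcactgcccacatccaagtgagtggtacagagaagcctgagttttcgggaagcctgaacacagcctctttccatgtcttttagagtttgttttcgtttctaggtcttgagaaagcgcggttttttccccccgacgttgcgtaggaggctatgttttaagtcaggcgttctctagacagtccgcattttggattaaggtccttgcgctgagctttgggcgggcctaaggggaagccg
Ndufv3: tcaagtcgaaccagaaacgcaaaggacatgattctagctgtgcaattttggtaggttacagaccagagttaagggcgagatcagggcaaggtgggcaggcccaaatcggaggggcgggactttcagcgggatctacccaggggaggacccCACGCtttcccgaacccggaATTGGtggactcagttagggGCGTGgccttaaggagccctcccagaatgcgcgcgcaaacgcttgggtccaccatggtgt
Ndufa3: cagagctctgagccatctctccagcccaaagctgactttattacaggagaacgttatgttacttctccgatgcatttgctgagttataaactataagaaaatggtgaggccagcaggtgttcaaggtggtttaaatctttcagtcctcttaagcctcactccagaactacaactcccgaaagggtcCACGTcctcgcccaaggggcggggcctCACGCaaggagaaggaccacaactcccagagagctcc
Ndufa4: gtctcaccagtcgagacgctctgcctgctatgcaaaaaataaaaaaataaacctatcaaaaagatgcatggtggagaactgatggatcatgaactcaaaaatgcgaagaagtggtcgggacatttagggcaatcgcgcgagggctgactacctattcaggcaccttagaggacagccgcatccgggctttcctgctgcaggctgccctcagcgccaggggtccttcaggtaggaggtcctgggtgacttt
Searched on both strands were the palindromic consensus of NRF1, AAGATGGC (YY1), CCGGAAG (ETS factors), ACGTG and GCGTG (cores of the hypoxia response element), AAGGTCA (oestrogen-related receptors) and CCAAT. The window of *Ndufv3*, which rose, held GCGTG or its reverse complement CACGC at -100 and -60 and the reverse complement of CCAAT at -80, and that of *Ndufa3*, which fell, held the reverse complement of ACGTG at -64 and CACGC at -37. None of these matches overlapped. The windows of *Cox7a2l* and *Ndufa4* held none of the motifs. The 5-letter cores are common. ACGTG was in 16.6% and GCGTG in 28.2% of all 32851 windows, and in 15 (21.4%) and 28 (40.0%) of the 70 member windows. The NRF1 consensus was in 4 of the 70 member windows (5.71%) and 0.782% of all, and CCGGAAG in 11 (15.7%) and 6.91%. AAGGTCA was in 5 (7.14%) and 4.08%, CCAAT in 30 (42.9%) and 33.8%, and AAGATGGC in none of the members and 1.56% of all. A member gene was counted by a single window, whereas all windows of a gene entered the background. A window was available for 71 of the 90 members, with 1 window for both *Atp5o* entries. *Cox4i1* and *Cox4i2* were among the members without a window.

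In HCHOs members moved in both directions. A total of 25 of 81 rose and 14 fell, against 31.3% and 31.3% of all 7189 genes, so that the share that rose was near the background and the share that fell below it, and their median was 0.01, or -0.09 with library totals in place of TMM. With library totals 11 rose and 30 fell, against 23.0% and 41.5% of all genes, a setting that also took the share of all called genes that rose from 50.03% to 35.7%. The balance turned in 3 other settings too, to 14 higher and 18 lower without a filter on low counts (all genes 17.8% and 17.4%), to 15 and 16 without a minimum share of cells (all genes 23.1% and 21.4%) and to 17 and 21 with the length trend removed (all genes 32.7% and 29.1%). Complex I contributed 12 that rose and 7 that fell, complex IV 6 and 3, complex V 5 and 2, and complex III 2 and 2. None of complex II was called. The summed level was 1.25 and 1.23% of UMIs in the mutant libraries and 1.25 and 1.25% in the control libraries and overlapped. Without the first mutant library 14 members rose and 9 fell, against 1929 and 1864 of all 7189 genes, both shares of members being below the background. The cells in the gate were not alike: *Col10a1*, the collagen of hypertrophic cartilage, was at 8858 and 8194 CPM in the mutants against 4782 and 4249 CPM in the controls, and *Ihh* was also higher, while the other 4 markers of the gate were lower, *Pth1r*, a receptor for parathyroid hormone, at 1225 and 1173 against 1843 and 1962 CPM. The CHO markers took 4.69 and 4.57% against 6.80 and 7.08% of UMIs in HCHOs (mutants against controls) and the OB markers 0.201 and 0.225% against 0.297 and 0.352%. The part of these differences in the HCHO results was not tested.

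CHOs resembled HCHOs with smaller changes. Of 80 members tested, 7 rose and 6 fell, against 18.0% and 16.7% of all 5881 genes, both shares of members being below the background, and the median was 0.00, or -0.08 with library totals, which called 5 higher and 15 lower (all genes 12.4% and 27.2%) and took the share of all called genes that rose from 51.8% to 31.4%. The members that rose were led by *Cox4i2*, *Cox7a2l* and *Ndufv3* (0.29), and those that fell by *Ndufa4*, *Ndufa3* and *Ndufb1*. Those are the same 6 genes that led in HCHOs. The fits of both types use the same 4 libraries. Without the first mutant library 3 members fell in place of 6 (597 of all 5881 genes). Of the 10 CHO markers 8 were lower in both mutant libraries, 1 was higher and 1 overlapped. OB markers took 0.0228 and 0.0177% against 0.0503 and 0.0538% of UMIs in CHOs (mutants against controls) and leukocyte markers 0.000235 and 0.000226% against 0.00109 and 0.00128%, and the part of these differences in the result was not tested.

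In the remaining 2 types few members could be called. In OBs 1 of 80 members fell (*Ndufa3*) and none rose, against 1.37% and 4.75% of all 6149 genes, with a median of -0.06. DESeq2 called none in either direction (all genes 122 higher and 18 lower of 6149). At an unadjusted p under 0.05 in edgeR's test, 8 members were lower and 0 higher. The count of all genes at that threshold is not given, so that no excess can be read from these. The summed level in OBs was 1.07 and 1.23% of UMIs in the mutant libraries and 1.19 and 1.24% in the control libraries. The first mutant library, with 98 cells and a median of 11173 UMIs per cell, was lower than the other 3. In FBs none of 79 members was called in either direction by edgeR or by DESeq2. With edgeR 1.59% of all 5834 genes were called higher and 1.15% lower. At an unadjusted p under 0.05 in edgeR's test, 5 members were higher and 1 lower, again without the count of all genes at that threshold. With 120 to 153 FBs per library, the median standard error of a member's log2 fold change was 0.13, against 0.05 in HCHOs, so that a change of the size seen in ECs could be missed in single genes. Summed levels in FBs were 1.44 and 1.38% against 1.37 and 1.36%.

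The 13 subunits encoded by mitochondrial DNA did not always move with their nuclear partners. In ECs 7 of 13 rose and none fell, with a median of 0.20, against 28.5% and 28.8% of all genes, and their sum was 3.59 and 3.54% of UMIs in the mutant libraries and 3.12 and 3.19% in the control libraries. In dpMSCs 11 of 12 rose (median 0.29), against 22.7% of all genes. In SMCs 6 fell and 1 rose (all genes 22.9% and 22.7%), while CHOs had 3 higher and 1 lower (all genes 18.0% and 16.7%), OBs 2 of 13 higher (all genes 4.75%) and FBs 1 of 12 higher (all genes 1.59%). In mpMSCs, in contrast, 8 fell and 1 rose (all genes 18.0% and 19.8%) while 24 nuclear members rose, and in HCHOs 12 of 13 fell, with a median of -0.31, against 31.3% of all genes. With the trend of mRNA length removed, 0 were higher in ECs and 5 in dpMSCs, and 10 were lower in SMCs. The counts were also sensitive to single libraries in ECs, where 3 rose without the first and 2 without the second mutant library, in dpMSCs, where 7 rose without the first control library, and in mpMSCs, where 2 fell without either control library.

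Of the 8 types, HCHOs had the largest difference in the ratio of both sums. Their mitochondrially encoded sum was 2.55 and 2.58% of UMIs in the mutant libraries and 3.62 and 3.76% in the control libraries, and did not overlap, while the nuclear sum did. The ratio of the nuclear to the mitochondrial sum was 0.491 and 0.476 in the mutants and 0.346 and 0.334 in the controls. *mt-Nd4*, a proton-pumping subunit of complex I, fell most, from 2839 and 2971 to 1703 and 1742 CPM (-0.65 ± 0.05 (SE, n = 2 libraries per genotype, adjusted p = 1.41e-08)). *mt-Cytb*, the cytochrome b of complex III, followed (-0.51). *mt-Nd6*, the single subunit encoded on the other strand of mitochondrial DNA, rose (36.2 and 39.6 CPM against 27.7 and 27.3 CPM, 0.56, adjusted p = 9.88e-06). Median depth was 12728 and 12764 UMIs per cell in mutant HCHOs and 15937 and 16374 in control HCHOs. The parts of depth and of the differing HCHO markers given above in this result were not tested. The same ratio was 0.364 and 0.347 in mutant mpMSCs against 0.270 and 0.269 in controls.

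Genes of the neighbouring pathways were followed by lists. Of the glycolysis and oxygen response genes, 13 of 14 rose in ECs (median 1.00), 14 of 14 in dpMSCs (1.07), 15 of 17 in mpMSCs (1.76), 19 of 20 in CHOs (0.66) and 20 of 20 in HCHOs (1.30). These genes therefore rose in types whose OXPHOS members rose (ECs), were mixed (HCHOs) or fell (SMCs, 13 of 17 higher). Of all genes tested, 28.5% rose in ECs, 22.7% in dpMSCs, 19.8% in mpMSCs, 18.0% in CHOs, 31.3% in HCHOs and 22.7% in SMCs, below the share of the list in each. The list also rose in FBs (11 of 17) and OBs (11 of 14), against 1.59% and 4.75% of all genes, where hardly any member was called. In HCHOs *Egln3*, an oxygen-sensing prolyl hydroxylase (3.77), and *Bnip3*, a receptor for the removal of mitochondria (2.85), rose most.

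The counts of the following lists stand against 28.5% of all genes higher and 28.8% lower in ECs, and 31.3% and 31.3% in HCHOs. Mitochondrial ribosomal protein genes rose with the set in ECs, 37 of 56 with none lower, led by *Mrpl33* (0.73) and *Mrpl54* (0.72), and in HCHOs 13 were higher and 13 lower of 66, both below the background. Of the carriers and channels of the mitochondrial membranes, 6 of 11 rose in ECs, with the outer membrane channel gene *Vdac1* (0.76) and cytochrome c, *Cycs* (0.75), ahead, and the uncoupling protein gene *Ucp2* fell (-0.59). Genes of the citrate cycle and pyruvate dehydrogenase, which feed the chain, gave 3 of 14 higher in ECs and none lower, and in HCHOs 6 of 16 lower and 1 higher, the first shares in each type being near the background and the second below it. Those that fell in HCHOs were led by *Ogdh* (-0.46) and *Suclg2* (-0.31), while *Mdh2* was the gene that rose (0.16). Of the assembly factors, 5 rose and 8 fell of 29 in HCHOs, both below the background, with *Higd1a* (1.60) and *Ndufaf3* (0.41) upwards and *Ndufaf4* (-0.41) and *Sdhaf1* (-0.35) downwards. Of the 14 regulators of mitochondrial biogenesis 6 were tested in HCHOs, where 1 rose, *Yy1* (0.31), and 3 fell, *Nrf1* (-0.36), *Polg* (-0.25) and *Pprc1* (-0.19), the last named after its values were seen. In ECs 5 were tested, of which none rose and 1 fell. Of the genes known to respond to tissue dissociation, 8 of 10 rose and 2 fell in ECs, led by *Atf3* (1.49) and *Fos* (1.10) upwards and *Hspa1b* (-0.85) and *Hspa1a* (-0.51) downwards, and their part in the rise of the members was not tested.

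In the control libraries alone, levels of the members were compared between types, each against the mean of the other 7. SMCs stood highest, with 74 of 81 members higher and none lower (median 0.71), against 26.8% and 29.3% of all 8941 genes. ECs had 5 higher and 71 lower (median -0.52, background 39.9% and 39.3%), and dpMSCs 3 and 73 (median -0.45, background 38.4% and 36.2%). The control EC libraries are the same that enter the genotype effect in ECs, so that the low control level and the rise in mutants are not separate measurements. CHOs had 8 higher and 50 lower (background 35.3% and 33.6%), HCHOs 25 and 28 (37.0% and 39.4%) and FBs 20 and 12 (25.2% and 24.8%). In the last 2 types the lean was small and turned with the settings. HCHOs had 33 higher and 17 lower without a filter on low counts and 33 and 20 with 1 marker more. FBs had 9 and 14 without the filter. With library totals HCHOs had 13 higher and 44 lower. The median of the members went from 0.00 to -0.12 and that of all genes from -0.03 to -0.16. In OBs the counts turned with the scaling. TMM gave 73 higher and 2 lower (median 0.50, background 35.7% and 41.0%). Library totals gave 8 higher and 55 lower (median -0.25). The median of all genes moved along, from -0.08 to -0.83, and that of the members lay above it under both scalings. In mpMSCs the counts also turned, from 7 higher and 35 lower (median -0.10, background 29.5% and 26.7%) to 39 and 4 (median 0.12). There the median of all genes went from 0.00 to 0.23, above that of the members under both scalings. The shares of all genes called outside the main setting are not given for these comparisons, so that no excess of members can be read from those counts.

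*Cox4i2* in controls was highest in SMCs, at 108 and 111 CPM (2.45 ± 0.20 (SE, adjusted p = 1.49e-07) against the mean of the other types), then in HCHOs with 92.5 and 107 CPM and CHOs with 64.5 and 86.8 CPM. SMCs and HCHOs were as close as 108 and 107 CPM. The mpMSCs (21.9 and 24.98 CPM), FBs (23.8 and 18.9 CPM) and dpMSCs (18.9 and 16.6 CPM) followed with overlapping values, and OBs and ECs were lowest. *Atp5g2* was also higher in CHOs (0.34) and HCHOs (0.63), and *Sdhc* in SMCs (1.71). Other leading members were *Ndufc2* (0.62) and *Ndufa8* (0.36) in ECs, both accessory subunits of complex I, *Ndufa1* (1.51) and *Atp5e* (1.44) in OBs, and *Ndufa11* (0.74) and *Ndufb4* (0.51) in FBs. In dpMSCs and mpMSCs the second *Atp5o* entry (ENSMUSG00000116933, 35.9% of its counts fractional) led. It was followed by *Ndufs4* in dpMSCs (0.57) and *Ndufb2* in mpMSCs (0.36).

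Of the 90 members, 9 passed the filter in no type. These were the muscle and testis isoforms *Cox6a2*, *Cox6b2*, *Cox7a1*, *Cox7b2*, *Cox8b* and *Cox8c*, and *Cox6c2*, *Ndufa11b* and *Ndufs6b*, which are annotated as pseudogenes and had 73.9%, 31.3% and 41.1% of their counts fractional. Of the partners of these isoforms, *Cox6a1* (0.30), *Cox6b1* (0.29) and *Cox8a* (0.41) rose in ECs (with the length trend removed none of the 3 was called, and the first 2 were at -0.016 and -0.019), and *Cox6a1* (-0.43) and *Cox8a* (-0.43) fell in SMCs. Among the tested members, *Ndufc2* and *Ndufs4* were called in none of 8 types.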

How the data were processed

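Single-cell suspensions of 4 libraries (2 per genotype) were profiled with the 10x Genomics 3′ kit (V3), whose molecular identifiers are counted once each. The authors trimmed reads with cutadapt (version 3.5), aligned them to GRCm39 with GENCODE M26, extended by CreERT2 and reporter sequences, and counted them with STARsolo (version 2.7.10a), which divides reads shared between genes by expectation maximisation. The deposited values are therefore expected counts per gene and barcode over exons and introns, with unfiltered barcodes, and no depth normalisation. Sums of these expected counts were rounded to whole numbers here before testing. Counts of near-identical genes depend on this division of reads.

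Barcodes with at least 1000 UMIs, at least 800 features, at most 15% mitochondrial and at most 5% haemoglobin counts and a complexity of at least 0.8 were kept. The deposited files used here hold no cell annotation, so cells were gated on markers: a barcode was assigned to the type with at least 3 of its markers on and a lead of more than 0.1 over the next type, a threshold chosen after seeing the data. Names rest on these rebuilt gates. Barcodes with markers of several types were left out, which was the only treatment of doublets, as no caller was run. Members took no part in the gates.

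Counts were summed per library and type, and each type was fitted with edgeR (4.0.16, R 4.3.3) by quasi-likelihood with TMM factors and no covariate, genes being called at a Benjamini-Hochberg adjusted p of at most 0.05 over all genes tested. The contrast of ECs with other types and the comparison of types in controls used a single fit with library as a block. With 2 libraries per genotype an exact permutation test cannot go below p = 0.333, so summed levels carry no test. DESeq2 (1.42.0) served as an alternative, beside library totals, other filters and gates, a block for replicate number, and the omission of each library. Scaling on other genes, removal of the trend with mRNA length (lowess per library, lengths from GENCODE M39) and the split of the EC and SMC gates by *Stab2* and *Myh11* were added after seeing the data. The procedure was tested on simulated counts with known changes. The simulation gave every gene the same dispersion. It held no difference in cell composition and no trend with mRNA length between genotypes, so that it says nothing on those.

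Same-numbered libraries did not deviate together (correlation between -0.08 and 0.06 over types), so the numbers were not taken as pairs. Total depth was 69636600 to 85899079 UMIs per library. Values in CPM are per 1000000 UMIs of the summed cells of a type, and medians of per-cell shares were computed cell by cell. Sequences before start sites came from RefSeq (GRCm38.p6) and gene positions from GENCODE M39 on GRCm39. The members and the gene lists were chosen with earlier results of these data known. Named genes were, per type, up to 3 members called in each direction with the largest change and no overlap between genotypes, the isoform groups and *Sdha* to *Sdhd*, up to 5 members called in most types per direction, up to 3 in the EC contrast, up to 2 leading each type in controls, and up to 2 per direction of each other list. Members outside this rule, such as those not called in ECs, were named after their values were seen. One member counted in the totals is not reported by name here.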

Additional observations from a re-analysis of the deposited data

Results flagged for a closer look

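The difference between the effect of the genotype in ECs and its mean effect in the other 7 cell types was singled out by a test of that difference itself, in a single edgeR quasi-likelihood fit with Benjamini-Hochberg adjustment. It was called for 65 of 81 members, in each case with a higher value in ECs, and for 12.6% of all genes in that direction. The largest differences on the log2 scale were 0.61 for *Atp5g1*, 0.59 for *Uqcrq* and 0.57 for *Ndufb4c*, the last with 48.2% of its counts in fractions. Both mutant EC libraries lay above both control EC libraries for *Atp5g1* and *Uqcrq*. In the alternatives the number called was between 34 and 66.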

How the results depend on the processing

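The direction of the members as a set was kept in ECs and SMCs under every alternative run. The SMC median was nevertheless -0.01 in cells with a *Myh11* count. The direction in mpMSCs depended on the removal of the length trend. That in HCHOs depended on the scaling, the filters and the length trend. In CHOs it depended on the scaling, the length trend (7 higher and 9 lower) and the markers required (8 and 11). All genes in CHOs numbered 995 higher and 874 lower of 5677 with the length trend removed. With 1 marker more they numbered 1497 and 1399 of 6200. Between types in controls, the counts of OBs and mpMSCs turned with the scaling. The median of the members kept its side of that of all genes there. The counts of HCHOs turned with the filter on low counts and the markers required. With library totals they leaned further down, while the median of the members stayed above that of all genes. Those of FBs turned with the filter on low counts. Single-gene calls were compared in 3466 values over all alternatives, of which 3036 kept their side of the threshold, 425 lost it and 5 changed sign. Only named genes already called in the main setting entered, so that a call could be kept or lost but not gained. Many of them had been named for their large changes. The counts therefore do not measure how stable single-gene calls are in general. The 5 changes of sign were all in ECs with the trend of mRNA length removed: *Atp5k* (-0.075), *Ndufa4* (-0.058), *mt-Cytb* (-0.034), *Cox6b1* (-0.019) and *Cox6a1* (-0.016). The limits of the data are 2 libraries per genotype, rebuilt gates whose cells differed between genotypes, types with about 100 cells in a library, and members with reads shared between genes. No cause of the differences between settings was tested.

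With DESeq2, members called higher numbered 1 in SMCs, 16 in dpMSCs, 7 in mpMSCs and 16 in HCHOs. All genes called higher there numbered 757 of 5133, 684 of 5128, 693 of 5973 and 1764 of 7189. In mpMSCs and HCHOs the share of members called higher was thus below that of all genes. Members called lower numbered 21 in SMCs, 0 in mpMSCs, 0 in OBs, 2 in CHOs and 9 in HCHOs. All genes called lower there numbered 757, 538, 18 of 6149, 496 of 5881 and 1565. With DESeq2, 5 mitochondrially encoded genes were lower in mpMSCs. With library totals in place of TMM, 1 member was higher in SMCs, 19 were higher and 2 lower in dpMSCs, 8 higher and 3 lower in mpMSCs, 15 lower in CHOs, and 11 higher and 30 lower in HCHOs, where the median of all genes moved by -0.10, and 7 mitochondrially encoded genes were higher in dpMSCs. All genes called higher in SMCs there numbered 1138 of 5133, and the shares in the other types are given above. Without a filter on low counts, 1 member was higher and 22 lower in SMCs, 15 higher in dpMSCs, 10 in mpMSCs, and 14 higher and 18 lower in HCHOs. All genes there numbered 1858 higher and 1529 lower of 15331 in SMCs. They numbered 1455 higher of 19732 in dpMSCs, 1497 higher of 16807 in mpMSCs, and 3791 higher and 3711 lower of 21274 in HCHOs. Without a minimum share of cells, 21 were higher in dpMSCs, 14 in mpMSCs, and 15 higher and 16 lower in HCHOs, with 5 mitochondrially encoded genes lower in mpMSCs. All genes there numbered 1706 higher of 15693 in dpMSCs, 1617 higher of 13109 in mpMSCs, and 3891 higher and 3606 lower of 16830 in HCHOs.

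The libraries share only a replicate number. With a replicate block, 1 member was higher in SMCs, 1 higher in FBs and 3 lower in OBs, and 7 mitochondrially encoded genes were higher in dpMSCs and 5 lower in mpMSCs. All genes there numbered 1100 higher of 5133 in SMCs, 225 higher of 5834 in FBs and 129 lower of 6149 in OBs. The block left the count in ECs at 68 higher and 0 lower (all genes 1740 and 1739 of 5868). A mitochondrial ceiling of 10% gave 24 members lower in SMCs, a summed level there lower by 0.25 percentage points of UMIs (-0.25 in place of -0.35), and 7 mitochondrially encoded genes higher in dpMSCs. Without that ceiling 1 member was higher in SMCs (all genes 1111 of 4908) and 3 lower in OBs (77 of 5749). With 2000 UMIs as the minimum 1 was higher in SMCs (1165 of 5201). With 1 marker more 11 of 80 were lower in CHOs, below the share of all genes (1399 of 6200).

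With the trend of mRNA length removed, 25 members were higher and 2 lower in ECs, 1 higher and 55 lower in SMCs, 17 higher and 21 lower in HCHOs, 14 higher and 4 lower in dpMSCs, 5 higher and 6 lower in mpMSCs and 3 lower in OBs, and mitochondrially encoded genes numbered 0 higher in ECs, 10 lower in SMCs and 5 higher in dpMSCs. All genes called lower in OBs in that setting numbered 99 of 5919, and the shares in the other types are given above. The EC contrast then had 36 higher and 1 lower. The ECs with a *Stab2* count had 14 members higher, and SMCs with a *Myh11* count 1 higher and 3 lower.

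Leaving out each library in turn gave these ranges of members called higher: 58 to 68 in ECs, 1 to 2 in SMCs, 10 to 37 in dpMSCs, 7 to 19 in mpMSCs, 14 to 22 in HCHOs and 34 to 52 in the EC contrast. Members called lower ranged from 25 to 42 in SMCs, 0 to 1 in mpMSCs, 3 to 6 in CHOs, 9 to 13 in HCHOs and were 0 in OBs. In the same fits all genes called higher ranged from 1300 to 1559 in ECs, 779 to 1039 in dpMSCs and 791 to 993 in mpMSCs. They ranged from 1929 to 2032 in HCHOs and 530 to 807 in the EC contrast. All genes called lower ranged from 1028 to 1081 in SMCs, 590 to 813 in CHOs and 1864 to 1993 in HCHOs. Mitochondrially encoded genes ranged from 2 to 8 higher in ECs, 7 to 11 higher in dpMSCs and 2 to 7 lower in mpMSCs.

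Between types in controls, library totals gave 13 members higher in ECs, 10 higher and 48 lower in dpMSCs, 39 higher and 4 lower in mpMSCs, 8 higher and 55 lower in OBs, 3 higher in CHOs and 13 higher and 44 lower in HCHOs, while the median of all genes moved to 0.27 in ECs, 0.30 in dpMSCs, 0.23 in mpMSCs, -0.83 in OBs and -0.16 in HCHOs. Without a filter on low counts 9 were higher and 14 lower in FBs, 5 higher in dpMSCs, and 33 higher and 17 lower in HCHOs. The numbers of all genes called in these settings are not given, so that no excess of members can be read from these counts.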
